A study of Mus musculus with 4 samples.

Results

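The guidance genes of sciatic nerve were described in mice that carry a human amyloidogenic transthyretin (TTR) and in their controls. They were taken by symbol from the gene table of the series, as every gene named as a semaphorin (Sema), plexin (Plxn), neuropilin (Nrp), ephrin (Efn), Eph receptor (Eph), netrin (Ntn), Unc5, Slit or Robo. This rule found 72 of the 50593 genes. Of these, 67 are protein-coding guidance genes, 3 are RNAs antisense to Plxna4, and 2 others match by name without being netrin receptors. Of these, Unc50 shares only the letters, and Unc5cl is a relative of the intracellular part of the Unc5 receptors.

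RNA of sciatic nerve was compared between HSF V30M mice and their HSF WT controls, which the labels give as 6 months old and of strain 129S1/SvImJ. HSF V30M mice are transgenic for human TTR V30M and null for their own Ttr, and HSF WT mice lack the transgene. Both groups carry a heterozygous deletion of heat shock factor 1 (Hsf1), so neither shows the nerve with intact Hsf1. The labels list 2 mice per group, and the table holds 1 FPKM value per gene and group (fragments per kilobase of transcript, scaled to depth, so a level already divided by transcript length). The methods state n = 4 for the sequencing and leave unclear whether this counts both groups together, so the number of mice behind a value is taken from the labels. Values per mouse were not analysed here, so no spread between mice and no test between the genotypes is given, and every difference stated here compares 1 pooled value with another without a replicate check. Because the whole nerve was sequenced, fewer cells of a type and less RNA per cell cannot be told apart.

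Guidance cues are secreted or membrane-bound proteins that attract or repel growing axons and migrating cells. Semaphorins signal through plexins, with neuropilins as the ligand-binding partner for most secreted class 3 semaphorins. Ephrins bind Eph receptor tyrosine kinases on the neighbouring cell, netrins act through Dcc, neogenin and Unc5 receptors, and Slits act through Robo receptors. In peripheral nerve these systems are known from the outgrowth and repair of axons, the sorting and migration of Schwann cells, and the growth of vessels.

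Most of the guidance genes were measurable in the nerve. A mean FPKM over both groups of at least 1 was reached by 58 of the 72 genes (80.6%), compared with 30.9% of the 50570 genes with an estimate. These 50570 include many non-coding genes, while nearly all guidance genes are protein-coding. Of the 17775 protein-coding genes with a mean above 0, 12715 reached a mean of 1. No guidance gene was at 0 in both groups, and only the antisense RNA Plxna4os3 was listed at 0 in one of them, with 0.55 FPKM in HSF V30M and 0 in HSF WT, which rests on 1 fragment.

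Among the 58 guidance genes whose mean reached 1 FPKM, the order of the levels was much the same in both groups. The Spearman correlation between the groups was 0.947 for these 58, given as a description since the genes share their libraries. Sema3b, a secreted semaphorin that signals through neuropilins, was the highest guidance gene in both, at 466 FPKM in HSF V30M and 366 in HSF WT. It held 56.4% of the summed FPKM of the 20 semaphorins in HSF V30M and 54.2% in HSF WT. Next in HSF V30M came the transmembrane semaphorin Sema6c (71.4 FPKM), the Robo ligand Slit2 (60.3), Sema3g (54.3) and Sema6d (50.5). In HSF WT, Sema6d (52.9) and Slit2 (47.7) followed Sema3b, and then Ephb6 (43.9), Plxnd1 (43.8), Sema6c (43.0) and Plxnb1 (42.3) lay within a few FPKM of each other.

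**Figure D1:**
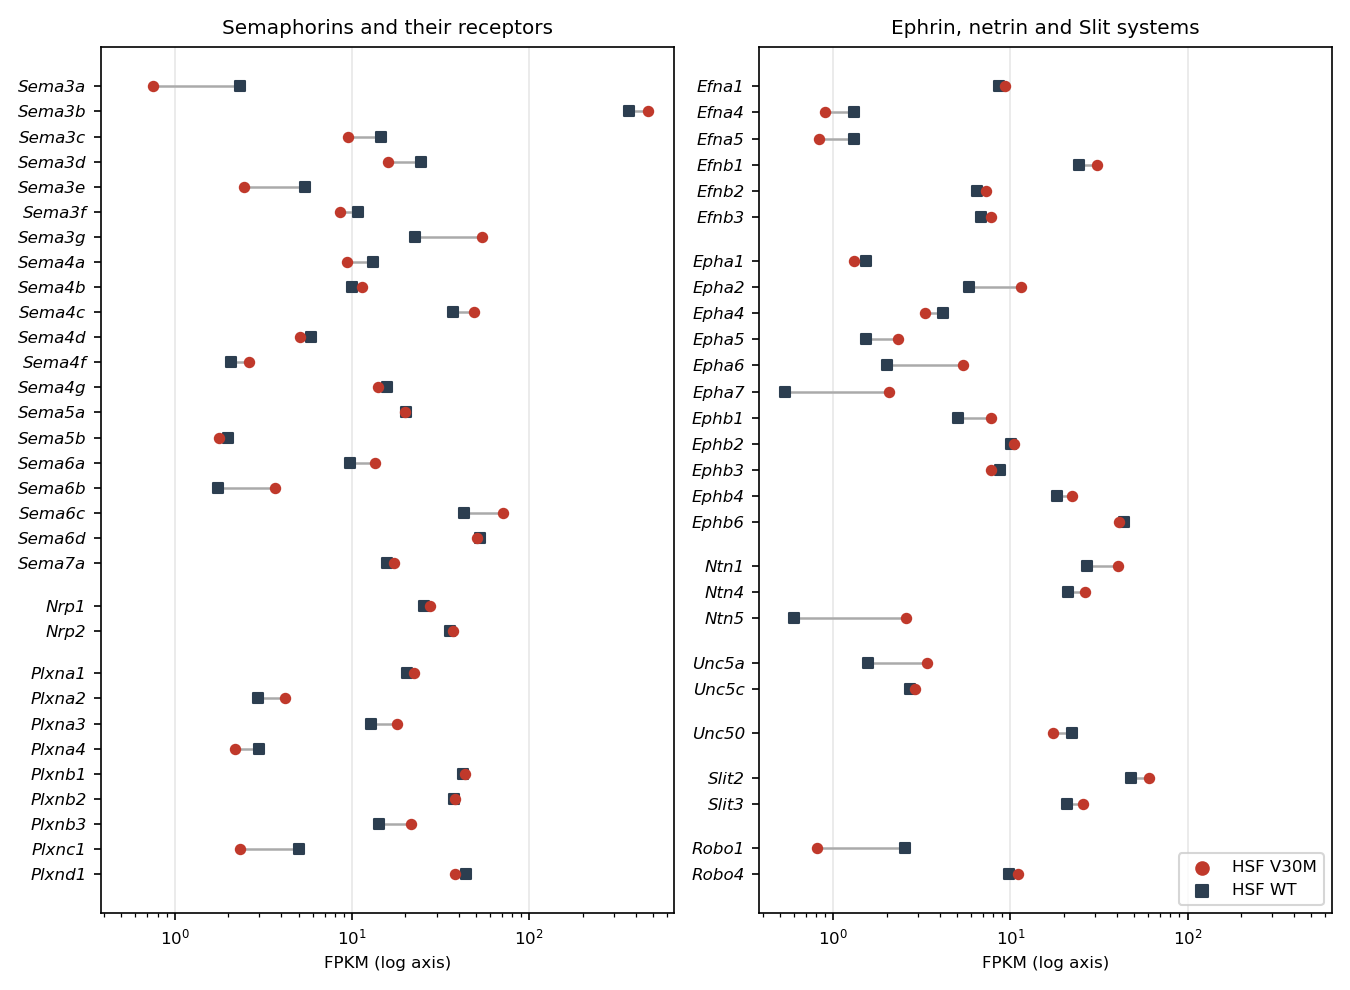
FPKM on a log axis of the 58 guidance genes with a mean of at least 1, by family; circles are HSF V30M and squares HSF WT, each 1 pooled value with no error. Most pairs lie close together, and Sema3b stands far to the right of the rest in both groups, at 466 and 366 FPKM.

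A gene is called past the fold here where log2((HSF V30M + 1) / (HSF WT + 1)) lies beyond 1.5-fold in either direction and the mean FPKM is at least 1. Of the 58 guidance genes, 13 (22.4%) were past the fold, against 16.7% of all 15620 genes with such a mean and 10.3% of the protein-coding ones. Higher in HSF V30M were 8 genes (13.8%), against 8.22% of all genes and 5.03% of protein-coding genes. These were Sema3g, Sema6b, Sema6c, Epha2, Epha6, Epha7, Ntn5 and Unc5a. Lower were 5 genes (8.62%), against 8.44% of all genes and 5.32% of protein-coding genes, namely Sema3a, Sema3d, Sema3e, Plxnc1 and Robo1. The share of higher guidance genes was thus above both backgrounds, while the share of lower ones was close to that of all genes and above that of protein-coding genes. Settings mattered for the count in either direction. With a minimum mean of 5 FPKM, 10.3% of guidance genes were past the fold, against 13.5% of all genes and 8.13% of protein-coding genes. With a fold of 2 the share was 5.17%, against 7.92% and 2.72%. In both settings the guidance share was thus below that of all genes and above that of protein-coding genes. The median log2 ratio of the 58 genes was 0.11, with 36 above 0 and 22 below, and that of all genes was 0.003.

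The fragments behind each value were estimated from the table, since low values pile up at the worth of 1 fragment. They give each fold a 95% interval (exact binomial) for counting error only, computed on the FPKM themselves and blind to differences between mice. The interval lay off 1 for all 13 genes past the fold and for 43 of the 58 genes in total, of which 28 were higher and 15 lower. In the table, 5 of the 13 genes (Sema3g, Sema6b, Sema6c, Epha2 and Robo1) were alone in their locus, and the other 8 shared it with a further gene, so their reads may be split. The 15 remaining genes could not be told from an equal level at this depth.

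**Figure D2:**
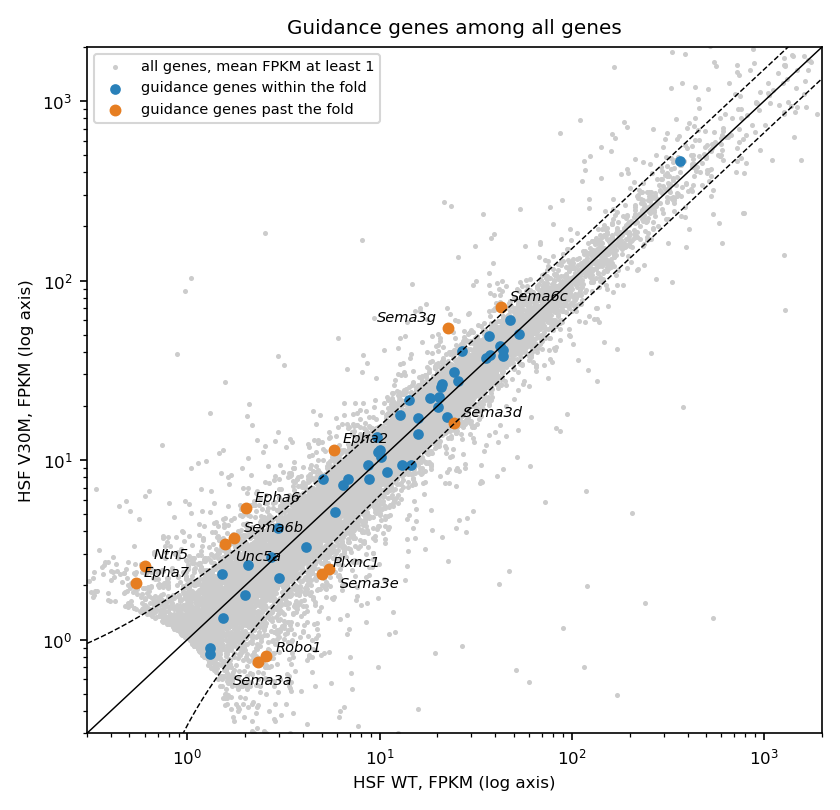
FPKM in HSF V30M against HSF WT on log axes, with genes whose mean FPKM was 1 or more in grey and guidance genes in colour; the solid line marks equal levels and the dashed curves 1.5-fold on the FPKM + 1 scale. Axes are limited, so a few genes lie outside the frame. The 8 orange guidance genes above the upper curve and the 5 below the lower one are named, and the other 45 lie between the curves.

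The secreted class 3 semaphorins held the highest log2 ratio of all guidance genes on the FPKM + 1 scale and all 3 of the ligands that were lower past the fold. Sema3g, a secreted semaphorin known from endothelium that binds Nrp2 (chr14:31217860-31230352, alone in its locus), was 54.3 FPKM in HSF V30M and 22.6 in HSF WT. This is a fold of 2.40 (2.26 to 2.54 by counting error) and a log2 ratio of 1.23, and it rests on 5003 to 5905 fragments in HSF V30M and 1509 to 2033 in HSF WT. Among the genes past the fold, only Sema6c had a higher level in HSF V30M.

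Sema3a, the prototype collapsing cue for sensory and sympathetic growth cones (chr5:13125414-13602565), was at 0.75 FPKM in HSF V30M and 2.34 in HSF WT. It was 3.12-fold lower (2.30 to 4.28), from 62 to 108 fragments against 140 to 277. Sema3e, which binds Plxnd1 directly without a neuropilin (chr5:14025276-14256689), was at 2.47 and 5.46 FPKM, or 2.21-fold lower (1.93 to 2.53). Both genes were low in the nerve, and lower in HSF V30M.

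Sema3d, a secreted semaphorin with a part in the patterning of vessels and of neural crest cells (chr5:12383385-12588948), was at 15.99 FPKM in HSF V30M and 24.5 in HSF WT. It was 1.53-fold lower (1.41 to 1.67), with a log2 ratio of −0.59 that places it barely past the fold. Sema3c, a ligand of Nrp1 and Nrp2 (chr5:17574281-17730268), was at 9.44 and 14.6 FPKM, 1.55-fold lower (1.42 to 1.68), and with a log2 ratio of −0.58 it stayed barely inside. These neighbours of the threshold differ in their call through the pseudocount and not through the size of their fold. Sema3f, an Nrp2 ligand, stood at 8.60 and 10.9 FPKM (log2 ratio −0.31), and Sema3b was 1.27-fold higher (1.25 to 1.30). In all, 5 of the 7 class 3 genes had a lower value in HSF V30M and the median log2 ratio was −0.58, while their FPKM summed to 557 against 446, most of it from Sema3b.

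The RefSeq promoters of the 4 class 3 genes of chromosome 5 are shown with that of Sema3g, since these genes stood on opposite sides of the comparison. Each window runs from 250 bases before to 50 bases after the RefSeq start on GRCm38.p6, 5′ to 3′ along the gene. Capitals mark the GC box GGGCGG, whose other strand reads as CCGCCC, and the box known as CCAAT, whose other strand reads as ATTGG. The windows of Sema3a and Sema3c lie inside their genes as the table's annotation draws them, that of Sema3a well after the first base. Either window may thus miss the start used in nerve.
Sema3a, chr5:13396534-13396833, plus strand: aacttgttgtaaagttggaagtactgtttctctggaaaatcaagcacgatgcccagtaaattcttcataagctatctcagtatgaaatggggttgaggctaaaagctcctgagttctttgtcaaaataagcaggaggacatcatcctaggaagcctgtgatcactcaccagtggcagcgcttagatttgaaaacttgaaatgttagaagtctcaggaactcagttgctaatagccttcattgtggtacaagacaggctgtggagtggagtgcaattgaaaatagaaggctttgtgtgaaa
Sema3c, chr5:17574566-17574865, plus strand: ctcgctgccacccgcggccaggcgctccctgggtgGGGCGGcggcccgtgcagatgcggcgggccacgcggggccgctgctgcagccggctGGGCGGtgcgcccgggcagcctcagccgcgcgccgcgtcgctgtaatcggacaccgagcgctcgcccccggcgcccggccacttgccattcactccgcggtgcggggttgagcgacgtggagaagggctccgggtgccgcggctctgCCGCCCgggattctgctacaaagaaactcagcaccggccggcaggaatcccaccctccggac
Sema3d, chr5:12382916-12383215, plus strand: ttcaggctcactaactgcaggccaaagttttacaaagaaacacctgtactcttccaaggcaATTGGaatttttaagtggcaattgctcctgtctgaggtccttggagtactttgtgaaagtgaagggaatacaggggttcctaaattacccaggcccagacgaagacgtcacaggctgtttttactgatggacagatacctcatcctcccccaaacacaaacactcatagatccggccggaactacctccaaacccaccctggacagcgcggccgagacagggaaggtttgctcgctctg
Sema3e, chr5:14025026-14025325, plus strand: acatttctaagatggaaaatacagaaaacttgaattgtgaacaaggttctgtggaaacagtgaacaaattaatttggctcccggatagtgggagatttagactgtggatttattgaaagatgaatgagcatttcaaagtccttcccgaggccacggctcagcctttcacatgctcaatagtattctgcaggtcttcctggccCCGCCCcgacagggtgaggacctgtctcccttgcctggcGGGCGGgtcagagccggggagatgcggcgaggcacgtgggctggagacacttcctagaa
Sema3g, chr14:31217623-31217922, plus strand: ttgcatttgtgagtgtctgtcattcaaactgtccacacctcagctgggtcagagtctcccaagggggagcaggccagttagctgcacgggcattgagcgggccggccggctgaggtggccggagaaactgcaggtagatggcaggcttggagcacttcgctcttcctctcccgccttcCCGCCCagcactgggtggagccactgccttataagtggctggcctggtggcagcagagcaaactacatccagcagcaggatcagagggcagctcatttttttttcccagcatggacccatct

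The Sema3c window held 3 GC boxes, 75.7% G or C and 42 CpG. That of Sema3e held 2 GC boxes (50.7% G or C, 11 CpG), that of Sema3d a CCAAT box and no GC box (49.7%, 8 CpG), and that of Sema3a none of the searched letters (41.3%, 2 CpG). The Sema3g window held 1 GC box (58.7%, 8 CpG). None of the searched motifs was thus present in the windows of all 4 genes of chromosome 5. The window of Sema3f, the class 3 gene with a lower value on another chromosome, is not shown.

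Among all guidance genes, 60 had a RefSeq window, of 27025 genes in total. These 27025 were not limited to protein-coding genes, while nearly all guidance genes are protein-coding. A GC box on either strand was found in 75.0% of the guidance genes and in 38.2% of all genes, a CCAAT box in 33.3% and 41.1%, and a TATAAA box in 3.33% and 15.7%. The median window of a guidance gene was 65.0% G or C with 21 CpG, compared with 52.7% and 7 over all genes. Of the heat shock element, the motif bound by Hsf1, only short parts were searched, GAANNTTC and TTCNNGAA, each of which reads the same on both strands. The first was in the window of Epha6 alone (1.67%, against 9.04% of all genes) and the second in that of Sema4b alone (1.67%, against 9.60%). A match is a run of letters and not a site known to be bound. None of these motif shares was matched for the G or C content of the windows.

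The transmembrane class 6 semaphorins, which signal mainly through A plexins, were higher or close to equal. Sema6c (chr3:95160457-95174024) was at 71.4 FPKM in HSF V30M and 43.0 in HSF WT, a fold of 1.66 (1.57 to 1.76). Sema6b (chr17:56123085-56140343), at 3.67 and 1.74 FPKM, had a fold of 2.11 (1.62 to 2.75). Sema6a, at 13.5 and 9.74 FPKM, had a log2 ratio of 0.43, and Sema6d, the highest of the class in HSF WT, was at 50.5 and 52.9 FPKM. The median log2 ratio of the 4 genes was 0.57.

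No semaphorin of class 4, 5 or 7 was past the fold. Class 4 held 6 genes with a median log2 ratio near 0, from Sema4a (9.42 and 13.1 FPKM, −0.43) to Sema4c (48.9 and 37.2 FPKM, 0.38). Sema4d, the ligand of Plxnb1 and the known partner of Cd72 on lymphocytes, was at 5.11 and 5.86 FPKM. Of class 5, whose proteins carry thrombospondin repeats, Sema5a stood at 19.8 and 20.1 FPKM. Sema7a, a membrane-anchored ligand of Plxnc1 and integrins, was at 17.2 and 15.8 FPKM.

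Of the 11 semaphorin receptors, 1 was past the fold. The neuropilins Nrp1 (27.6 and 25.5 FPKM) and Nrp2 (37.2 and 35.8 FPKM) had log2 ratios of 0.11 and 0.05. Of the 9 plexins, Plxnb1 was the highest in HSF V30M at 43.3 FPKM (42.3 in HSF WT) and Plxnd1, the receptor of Sema3e, was the highest in HSF WT at 43.8 FPKM (38.2 in HSF V30M). Plxnb2 was at 38.3 and 37.6 FPKM. Summed over the plexins, the level was 190 FPKM in HSF V30M and 182 in HSF WT.

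Plxnc1, the receptor of Sema7a (chr10:94790866-94944835), was the only plexin past the fold. Its level was 2.33 FPKM in HSF V30M and 5.02 in HSF WT, 2.15-fold lower (1.88 to 2.47), from 351 to 414 fragments against 547 to 737. Plxnb3, known from glia and neurons, was at 21.5 and 14.1 FPKM, and its log2 ratio of 0.57 stayed inside the fold. The A plexins ran from Plxna4 (2.20 and 3.0 FPKM, −0.32) to Plxna3 (17.9 and 12.7 FPKM, 0.46). Reads of Plxna4 and of its antisense RNAs cannot be told apart without strand, and the sources used here do not state whether strand was counted.

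Among the Eph receptors, those of the A class that were past the fold were all higher in HSF V30M, and none of the B class was past it. Epha2, a receptor best known from epithelia and endothelium (chr4:141301240-141329384, alone in its locus), was at 11.4 FPKM in HSF V30M and 5.81 in HSF WT. Its fold was 1.96 (1.73 to 2.23), from 899 to 1062 fragments against 331 to 447. Epha6 (chr16:59653483-60605531), mostly known from the nervous system, was at 5.37 and 2.02 FPKM, a fold of 2.66 (2.15 to 3.28). Epha7 (chr4:28813131-28967499), a receptor in topographic mapping of axons, was at 2.07 and 0.54 FPKM, a fold of 3.85 (2.24 to 6.58) that rests on only 18 to 73 fragments in HSF WT.

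The other A class receptors with a mean of at least 1 were within the fold. Epha5 was at 2.33 and 1.52 FPKM (log2 ratio 0.40), Epha4, a receptor for both ephrin classes, at 3.28 and 4.14 (−0.26), and Epha1 at 1.31 and 1.53 (−0.13). Summed over the 9 A class genes, the level was 26.3 FPKM in HSF V30M and 16.1 in HSF WT. The 5 B class receptors were higher in level and nearly equal between the groups, at 89.0 and 86.1 FPKM in sum. Ephb6, which lacks kinase activity, led them at 40.9 and 43.9 FPKM, and Ephb4, the venous receptor of ephrin B2, was at 22.2 and 18.3 FPKM. Ephb1, at 7.82 and 5.06 FPKM, had the largest ratio of the class, with a log2 ratio of 0.54.

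No ephrin was past the fold. Efnb1, a transmembrane ephrin, was the highest in both groups at 30.9 and 24.4 FPKM (log2 ratio 0.33). Efna1, a membrane-anchored ligand of Epha2, was at 9.35 and 8.66 FPKM, and Efnb2 and Efnb3 lay between 6.46 and 7.79 FPKM. Efna4 (0.90 and 1.31 FPKM) and Efna5 (0.83 and 1.31 FPKM) were near the minimum, and their counting intervals reached from below to above equal levels.

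**Figure D3:**
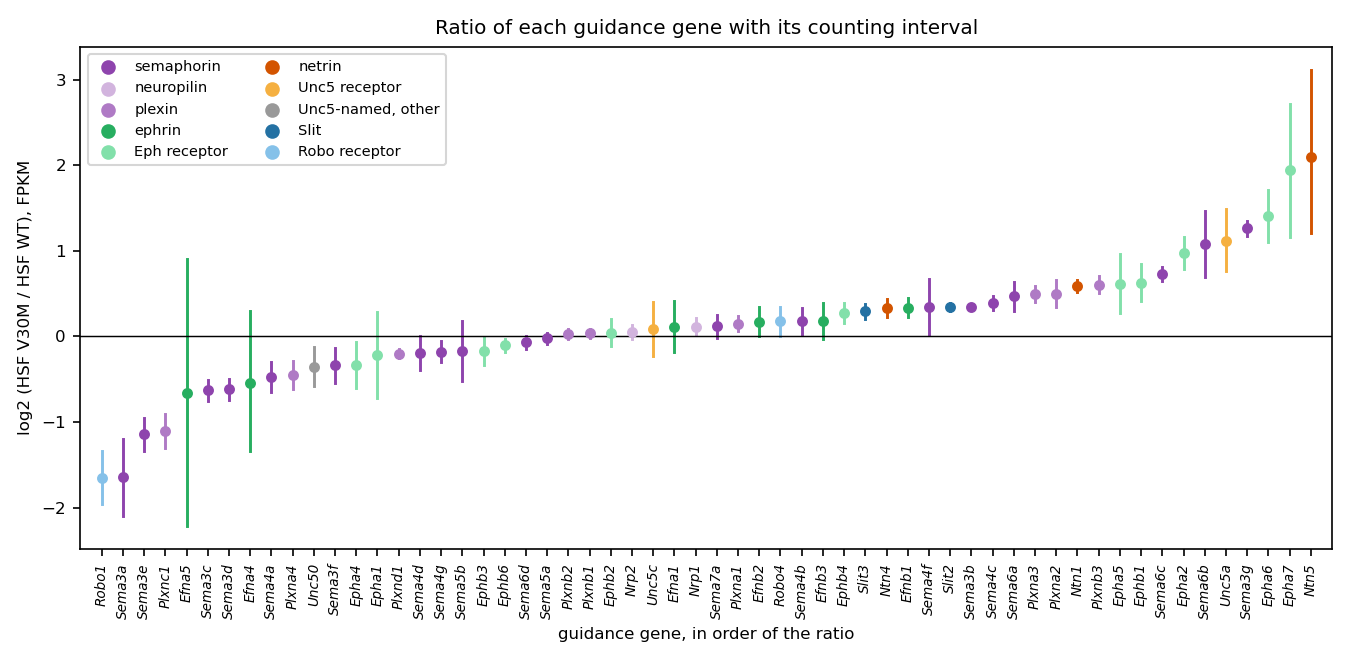
Ratio of the HSF V30M to the HSF WT value on a log2 scale, computed on FPKM with no pseudocount, for the 58 guidance genes in order, coloured by family; bars are 95% intervals for counting error only and do not cover differences between mice. Robo1 and Sema3a stand at the low end and Ntn5 and Epha7 at the high end, where the intervals are wide because few fragments were counted.

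All 3 netrins had a higher value in HSF V30M. Ntn1, the founding member that attracts or repels axons by receptor, was at 40.5 and 26.9 FPKM, a fold of 1.51 (1.43 to 1.58) with a log2 ratio of 0.57 that stayed inside the fold. Ntn4, a netrin of basement membranes that binds laminin, was at 26.5 and 21.1 FPKM (0.32). Ntn5, a small netrin-like gene (chr7:45684022-45694556), was at 2.58 and 0.60 FPKM, a fold of 4.29 (2.30 to 8.67) from 71 to 101 fragments against 12 to 19. The family thus held a pair of well-counted genes with modest ratios and a sparse gene with the largest fold of all guidance genes past the fold.

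Of the Unc5 receptors, which turn the response to netrin into repulsion, Unc5a (chr13:54949411-55006018) was past the fold. It was at 3.40 FPKM in HSF V30M and 1.57 in HSF WT, a fold of 2.17 (1.70 to 2.81). Unc5c was at 2.90 and 2.73 FPKM, and Unc5b and Unc5d had means under 1. Unc50, matched by name only, was at 17.4 and 22.3 FPKM.

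In the Slit and Robo system, 2 of the 3 Slits were well expressed and Robo1 was low. Slit2 (60.3 and 47.7 FPKM, log2 ratio 0.33) and Slit3 (25.7 and 20.9 FPKM, 0.28) were within the fold, and Slit1 had a mean under 1. Robo1, the receptor through which Slits repel axons (chr16:72308306-73046095, alone in its locus), was at 0.81 FPKM in HSF V30M and 2.55 in HSF WT. It was 3.15-fold lower (2.54 to 3.90), from 127 to 149 fragments against 288 to 388, and its log2 ratio of −0.97 was the lowest of all guidance genes. Robo4, a Robo of endothelial cells, was at 11.1 and 9.80 FPKM.

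By role, 31 ligands and 26 receptors had a mean of at least 1. Past the fold were 4 higher and 3 lower ligands, and 4 higher and 2 lower receptors. The median log2 ratios were 0.15 for ligands and 0.09 for receptors.

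**Figure D4:**
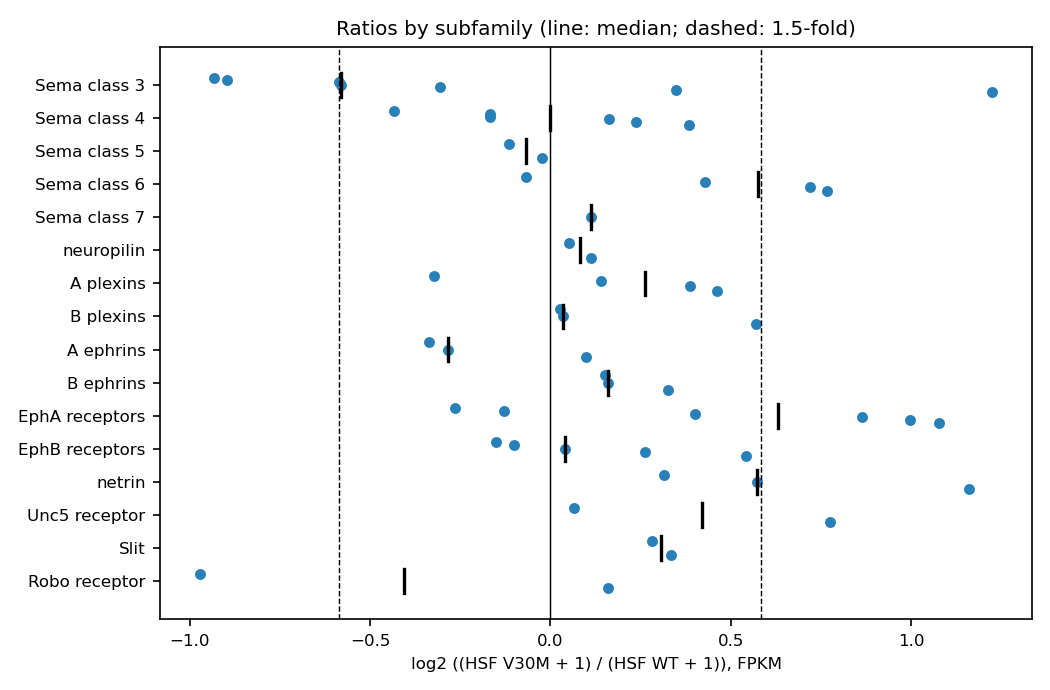
log2((HSF V30M + 1) / (HSF WT + 1)) of guidance genes by subfamily, for genes past the minimum mean of 1 FPKM; each point is a gene, the short bar is the median and dashed lines mark 1.5-fold. Plxnc1, Plxnd1 and Unc50 are not drawn. Class 3 semaphorins spread on both sides with a median of −0.58, class 6 semaphorins, A class Eph receptors and netrins have medians of 0.57, 0.63 and 0.57, and class 4 semaphorins and B plexins centre near 0.

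Of 73 further genes of guidance signalling, 72 were in the table, 64 had a mean of at least 1, and 2 were higher and 2 lower past the fold. This is 3.12% each way, against 8.22% higher and 8.44% lower among all genes, and 5.03% and 5.32% among protein-coding genes. Their median log2 ratio was 0.06. Rgma, a membrane-anchored repulsive ligand of neogenin, was at 29.9 FPKM in HSF V30M and 12.9 in HSF WT (log2 ratio 1.15). Crmp1, a cytosolic mediator of Sema3a signalling, was at 2.18 and 0.98 FPKM (0.68). Tiam1, an exchange factor for Rac that binds Eph receptors, was at 15.8 and 25.6 FPKM (−0.66), and Cd72 was at 5.17 and 8.38 FPKM (−0.60). The 12 genes of Slit and Robo signal transduction and the 15 shared effectors of the cytoskeleton held none past the fold. Neogenin itself (Neo1) was at 7.66 and 8.36 FPKM, and Dcc was at 0.01 and 0.03.

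Markers of several cell types differed between the groups, and their part in the values of the guidance genes was not tested. Counts are of markers with a mean of at least 1. The sums take in every listed marker, also those under that mean, and are given for HSF V30M first. Mbp, a protein of compact myelin, was high in both, at 3854 and 3441 FPKM, and was within the fold. Endothelial markers were at 262 and 198 FPKM, with 2 of 7 higher, Cldn5 (100 and 57.9) and Vwf (52.5 and 27.3). The rest were within the fold. Of these, Pecam1 (44.9 and 56.5), Kdr (7.32 and 7.72) and Tek (8.47 and 8.58) had lower values in HSF V30M. Cdh5 (40.8 and 33.8) and Emcn (7.67 and 6.35) had higher ones. Lower past the fold in HSF V30M were 6 of 6 skeletal muscle markers (41.2 and 157 FPKM in sum) and 3 of 5 adipocyte markers (1131 and 1733). So were 3 of 3 B cell markers (1.79 and 18.4) and 2 of 2 T cell markers (1.73 and 7.64). Also lower past the fold were 2 of 7 fibroblast markers (2063 and 2098) and 1 of 6 macrophage markers (85.7 and 113). Smooth muscle and pericyte markers were at 722 and 1330 FPKM in sum, with 1 of 6 higher (Rgs5) and 2 lower (Tagln and Myh11). The lower sum came mainly from Tagln (472 and 1102 FPKM), and the median log2 ratio of the list was 0.11. Higher were 5 of 6 neutrophil markers (104 and 30.8), with 1 lower, 4 of 5 erythrocyte markers (288 and 99.6), 2 of 5 markers of neuronal cell bodies (99.5 and 52.0), and 1 each of 4 pan Schwann cell markers (546 and 371) and of 5 perineurial markers (527 and 439). Non-myelinating Schwann cell markers were at 142 and 149 FPKM, with 1 of 6 higher and 1 lower. No marker of these lists was at 0 in either group. Of the altered genes themselves, Hsf1 was at 7.94 FPKM in HSF V30M and 15.0 in HSF WT. It was thus lower past the fold in HSF V30M, though both groups carry the heterozygous deletion, and the reason was not tested. Ttr, read under the mouse symbol, was at 6.10 FPKM in HSF V30M and listed at 0 in HSF WT.

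**Figure D5:**
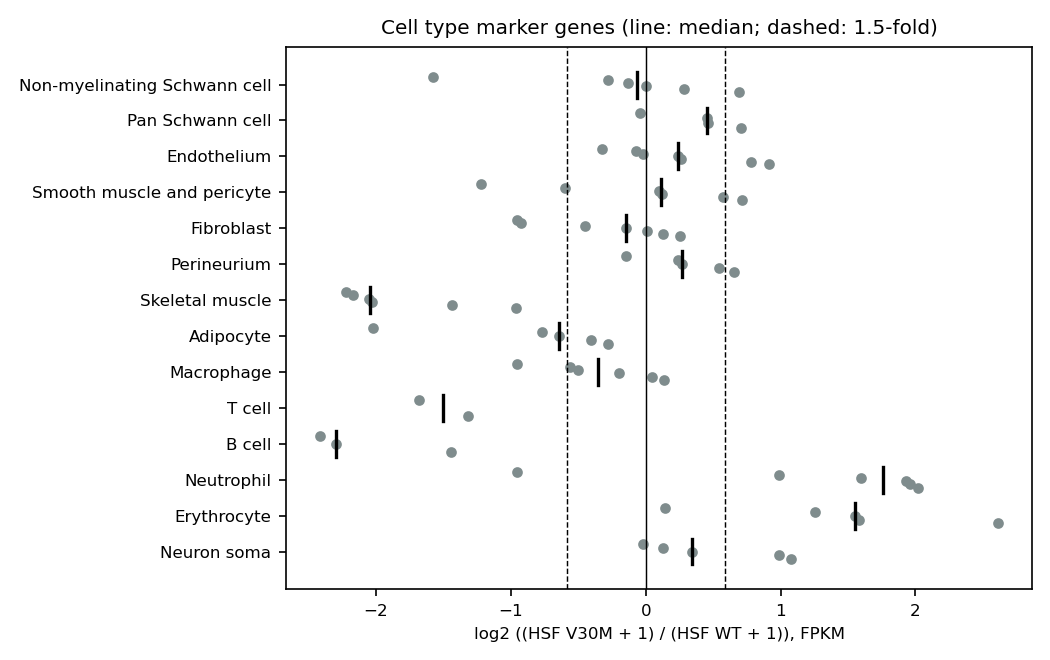
log2((HSF V30M + 1) / (HSF WT + 1)) of cell type marker genes past the minimum mean of 1 FPKM; each point is a gene, the short bar the median and dashed lines 1.5-fold. Skeletal muscle, T cell and B cell markers lie to the left, and neutrophil and erythrocyte markers mostly to the right.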

How the data were processed

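Total RNA of sciatic nerve was sequenced from Ion Torrent libraries. The labels name STAR, Cufflinks, Cuffdiff and GRCm38, with versions not given in the sources used here. The authors deposited 1 Cuffdiff table with an FPKM score per gene and group, pooled over the mice, beside their own log2 fold change, test statistic, p-value and q-value, which were not used. The reference genome is of strain C57BL/6J, while the mice are of a 129 strain. Decimal commas were read as points.

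From these values, log2((HSF V30M + 1) / (HSF WT + 1)) was computed, with a pseudocount of 1, a minimum mean FPKM of 1 and a fold of 1.5. The 23 genes without an estimate were left out. Such ratios understate the change of low genes. The locus given in the table was shared with another gene for 42 guidance genes, so reads may be split between overlapping genes there. Positions are those of the GRCm38 annotation, and promoters are from RefSeq.

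Depth was read from single-transcript genes: FPKM multiplied by the kilobases of transcript left after subtracting 195 bases piled up at 0.0400 and 0.0472 in HSF V30M and at 0.0484 and 0.0652 in HSF WT, the worth of 1 fragment in each library. The libraries of a group thus differed 1.18-fold and 1.35-fold in depth. Fragment ranges run from the shortest coding transcript and larger worth to the longest and smaller worth. Intervals at 95% use the low end and cover counting error only.

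The members and gene lists were chosen with earlier results of these data known. Genes named are all those past the fold, the highest of each family, the 5 largest and 5 smallest log2 ratios, and others with a mean of at least 1. The list of myelinating Schwann cell markers is not reported here as a whole. Alternatives were another pseudocount, minimum, fold, scaling and membership. Scripts were tested on simulated data. Software was Python 3.11.15 with scipy 1.17.1, pandas 2.3.3, numpy 2.4.6 and matplotlib 3.10.9.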

Additional observations from a re-analysis of the deposited data

How the results depend on the processing

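With a minimum mean FPKM of 5, 4 of 39 guidance genes (10.3%) were past the fold, 3 higher (Epha2, Sema3g and Sema6c) and 1 lower (Sema3d), against 13.5% of all genes and 8.13% of protein-coding genes. With a fold of 2, 3 were past it, 3 higher (Epha6, Ntn5 and Sema3g) and 0 lower. This was 5.17% of guidance genes, against 7.92% of all genes and 2.72% of protein-coding genes. Fewer genes can pass either setting by its construction. With a pseudocount of 0.1, 18 were past the fold (11 higher, 7 lower), or 31.0% against 21.7% of all and 14.5% of protein-coding genes. With no pseudocount, added after seeing the data, there were 19 (12 higher, 7 lower), or 32.8% against 22.5% and 15.0%. Without a minimum there were 15 (10 higher, 5 lower), or 20.8% against 12.4% and 8.65%. Median-of-ratios scaling, whose factors were 1.001 in HSF V30M and 0.9988 in HSF WT, gave 13. Protein-coding genes alone, and leaving out Unc50 and Unc5cl, also gave 13. Neither of these memberships could differ, since no gene they leave out was past the fold. The median log2 ratio ran from 0.07 to 0.14. Of 174 single-gene values, from a pseudocount of 0.1, no pseudocount or median-of-ratios scaling, 10 moved beyond counting error and 0 changed sign. A pseudocount added to both groups cannot change a sign, and the scaling hardly moved the values. The lack of sign changes thus follows from the settings. No paired analysis was possible because values per mouse were not analysed here, only 1 per group, and for the same reason no mouse could be left out. The spread between mice is unknown, and counting intervals do not stand in for it.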

Other observations

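Of the 5 class 3 semaphorin genes with a lower value in HSF V30M, 4 (Sema3a, Sema3c, Sema3d and Sema3e) lie within 5.35 Mb of chromosome 5, from 12383385 to 17730268 on GRCm38, and the other, Sema3f, lies on chromosome 9. This stretch was chosen after the values had been seen. The table lists 77 genes there, of which 7 had a mean FPKM of at least 1. The other 3 were Pclo (1.81 FPKM in HSF V30M and 1.38 in HSF WT, log2 ratio 0.24), Cacna2d1 (2.74 and 3.19 FPKM, −0.16) and Hgf (1.33 and 1.52 FPKM, −0.11), and none of them was past the fold.

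Of the 14 guidance genes with a mean FPKM under 1, 3 had higher values in HSF V30M with a counting interval off 1. Slit1, the Slit of the central nervous system, was at 0.48 FPKM in HSF V30M and 0.10 in HSF WT, a fold of 4.64 (2.03 to 12.0) from 7 to 12 fragments in HSF WT. Efna3, a membrane-anchored ephrin, was at 1.26 and 0.37 FPKM (3.42, 1.02 to 19.5), and Unc5b, a netrin receptor of vessels, was at 1.11 and 0.66 FPKM (1.69, 1.11 to 2.56). These 3 were picked after their values had been seen.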
